A study of Mus musculus with 12 samples.

Results

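The 8 genes described here encode the metallothioneins Mt1 and Mt2, the zinc transporters Slc30a1, Slc30a2, Slc39a4, Slc39a5 and Slc39a14, and the metal-responsive transcription factor Mtf1. They were chosen by name, and all 8 were found among the 46095 gene rows of the count table. Bulk RNA was sequenced in 12 samples of mouse pancreas taken at postnatal day 56. Of these, 6 came from C57BL/6J wild type animals (WT 1 to 6) and 6 from animals given as Axl-/-Mertk-/- (AMKO 1 to 6), that is, with both copies of 2 genes for receptor tyrosine kinases that recognise dying cells disrupted. Every mouse of both genotypes had received caerulein, a cholecystokinin analogue that overstimulates acinar cells, in 10 hourly doses of 100 µg/kg into the peritoneum, and was killed 12 h after the first dose. For AMKO the sources used here name no strain background, and no untreated pancreas was analysed here, so all values compare genotypes within acute pancreatitis.

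Zinc enters the cytosol through ZIP transporters (Slc39a genes) and leaves it, for the outside or for vesicles, through ZnT transporters (Slc30a genes). Metallothioneins are small, cysteine-rich proteins that bind the free metal, and MTF1 senses zinc and switches on metallothionein and Slc30a1 transcription through metal response elements. Acinar cells are rich in zinc, which they load into zymogen granules and secrete with the digestive enzymes, and both metallothioneins and Slc39a14 are known to respond to inflammation and stress hormones.

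Libraries held 10668637 to 15184371 counts. Axl, the targeted gene on which the labels can be checked, averaged 58.8 ± 12.2 CPM in WT and 9.07 ± 2.20 CPM in AMKO (SD, n = 6 each; CPM, each count relative to its library's total after TMM scaling), while Mertk counts did not separate the genotypes (6.88 ± 2.96 and 6.74 ± 2.39 CPM; log2 fold change -0.03, SE 0.30, adjusted p = 0.968). A whole-gene count need not fall where part of a gene is deleted, so the Mertk counts do not check the Mertk allele. A list of 16 acinar markers summed to between 188400 and 355300 CPM in every library, as pancreas should show. WT 1 to 3 held 2 to 7 counts of the liver transcript Alb, against 141 to 309 in WT 4 to 6 and all AMKO libraries, and WT 3, WT 6, AMKO 3 and AMKO 6 have low levels of leukocyte markers. For the members and Slc39a10, calls that end when these libraries are left out are given below with both values. Calls of marker genes and of the genes most like Slc39a14 are given from all 12 libraries only.

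Mt1 and Mt2 were by far the most abundant of the 8 genes and did not pass the test between genotypes, although their means were higher in AMKO. They lie next to each other on chromosome 8 (GRCm38), Mt2 at chr8:94172664-94173568 and Mt1 at chr8:94179082-94180327, both on the plus strand and separated by 5513 bases. The letters upstream of both genes are shown because metallothionein transcription is classically driven by metal response elements there. The 250 bases before the RefSeq start (GRCm38.p6) are printed in transcript direction, with matches to the core of that element in capitals. The core was searched on both strands as TGCACNC and TGCGCNC, which read GNGTGCA and GNGCGCA on the printed strand when they lie on the other one. The Mt1 stretch holds the matches that fall just after the RefSeq start used here. Annotated Mt1 exons cover 1246 bases, the whole span of the gene, against 549 in the principal transcript. These lengths do not show whether Mt1 transcripts differ in where they start. Relative to a start further downstream these matches would lie before it, and bases beyond the window were not searched.
Mt1, chr8:94178839-94179088, plus strand: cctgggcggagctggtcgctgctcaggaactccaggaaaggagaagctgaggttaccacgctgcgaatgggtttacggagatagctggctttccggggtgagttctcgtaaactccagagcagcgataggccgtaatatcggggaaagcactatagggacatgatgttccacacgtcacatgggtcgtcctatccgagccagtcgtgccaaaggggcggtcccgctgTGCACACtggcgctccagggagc
Mt1, chr8:94179091-94179115, plus strand: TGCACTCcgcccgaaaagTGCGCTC
Mt2, chr8:94172368-94172617, plus strand: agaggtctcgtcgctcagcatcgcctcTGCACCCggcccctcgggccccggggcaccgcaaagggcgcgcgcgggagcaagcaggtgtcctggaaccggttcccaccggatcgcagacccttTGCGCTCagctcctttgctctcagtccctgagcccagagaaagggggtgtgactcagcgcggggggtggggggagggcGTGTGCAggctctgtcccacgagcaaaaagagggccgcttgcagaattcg
In the whole window of 300 bases, which runs to 50 bases after the RefSeq start used, Mt2 held 4 matching positions and Mt1 held 3. Across the 32851 promoter windows of the same length in the RefSeq table, 25.7% held at least 1 match, 1.97% at least 3 and 0.517% at least 4. The Slc30a1 window is shown for comparison, since this exporter is also a classical MTF1 target.
Slc30a1, chr1:191906531-191906780, plus strand: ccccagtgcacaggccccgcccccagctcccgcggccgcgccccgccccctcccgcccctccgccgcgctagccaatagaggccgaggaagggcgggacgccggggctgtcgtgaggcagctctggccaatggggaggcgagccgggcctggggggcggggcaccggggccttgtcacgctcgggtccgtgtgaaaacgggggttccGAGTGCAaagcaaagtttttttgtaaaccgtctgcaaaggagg
Slc30a1 held 2 matches, 1 of them in the printed bases, and Slc30a2 held 2 (7.11% of all windows held at least 2). The Slc30a2 window begins inside the gene as GENCODE places it and is not printed. Slc39a5 held 1 match in 1 of its 2 windows, and the Mtf1 window held none. In all, 6 of the 8 members had a window in the table, the others being Slc39a4 and Slc39a14. A match describes letters and does not show binding.

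Mt1 ranged in WT from 492 CPM in WT 2 through a median of 1045 to 1316 CPM in WT 3, and in AMKO from 902 CPM in AMKO 1 through a median of 1355 to 1854 CPM in AMKO 2. The lowest libraries, WT 2 and WT 5, were both wild type, 3 AMKO libraries lay above every WT library, and the ranges overlapped. The means of 982 ± 331 and 1349 ± 337 CPM gave a log2 fold change of 0.46 (SE 0.23, 95% confidence interval -0.04 to 0.95, adjusted p = 0.264 by edgeR's quasi-likelihood test). Mt2 went from 428 through 731 to 885 CPM in WT and from 659 through 807 to 1087 CPM in AMKO. Again WT 2 and WT 5 were the lowest and AMKO 2 the highest, and the groups overlapped (log2 fold change 0.33, SE 0.17, 95% confidence interval -0.04 to 0.70, adjusted p = 0.282). Mt2 counts are uncertain where the antisense gene Gm45774 overlaps it. The intervals leave room for no difference and for a rise of Mt1 of nearly 1 log2 unit. Mt1 and Mt2 together took 0.167% ± 0.0482 of all counts in WT and 0.215% ± 0.0409 in AMKO, and they ranked 50 and 78 by mean log2 CPM among the 13743 genes tested.

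In WT 2 and WT 5, where both metallothioneins were lowest, the 7 fibroblast markers summed to 1152 and 1004 CPM, against 650 to 822 CPM in the other WT libraries. The 7 adipocyte markers summed to 274 and 498 CPM there, against 91.0 to 147 CPM in the other WT libraries. AMKO 1, the AMKO library with the least Mt1, had the highest adipocyte sum of its group (337 CPM). AMKO 5, the AMKO library with the least Mt2 (659 CPM), had the highest fibroblast sum of its group (1065 CPM). AMKO 4 went the other way, with less Mt2 than AMKO 1 (726 and 741 CPM) but low adipocyte and fibroblast sums (70.6 and 557.5 CPM). Hepatocyte marker sums were also the highest of their genotype in WT 2 and WT 5 (361 and 648 CPM) and in AMKO 1 and AMKO 5 (521 and 363 CPM). Acinar sums of WT 2 and WT 5 were 217300 and 276600 CPM, within the 209700 to 315800 CPM of the other WT libraries. Those of AMKO 1 and AMKO 5 (188400 and 269000 CPM) were the lowest of AMKO. The 7 genes induced by NRF2 or heme, described below, had their lowest sums of each genotype in the same libraries. They summed to 1086 and 1183 CPM in WT 2 and WT 5, and to 1167 and 922 CPM in AMKO 1 and AMKO 5. These libraries and lists were picked after the values were seen. The part of tissue makeup in the metallothionein values was not tested, and in bulk tissue fewer cells of a type cannot be told apart from less RNA per cell.

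**Figure D1:**
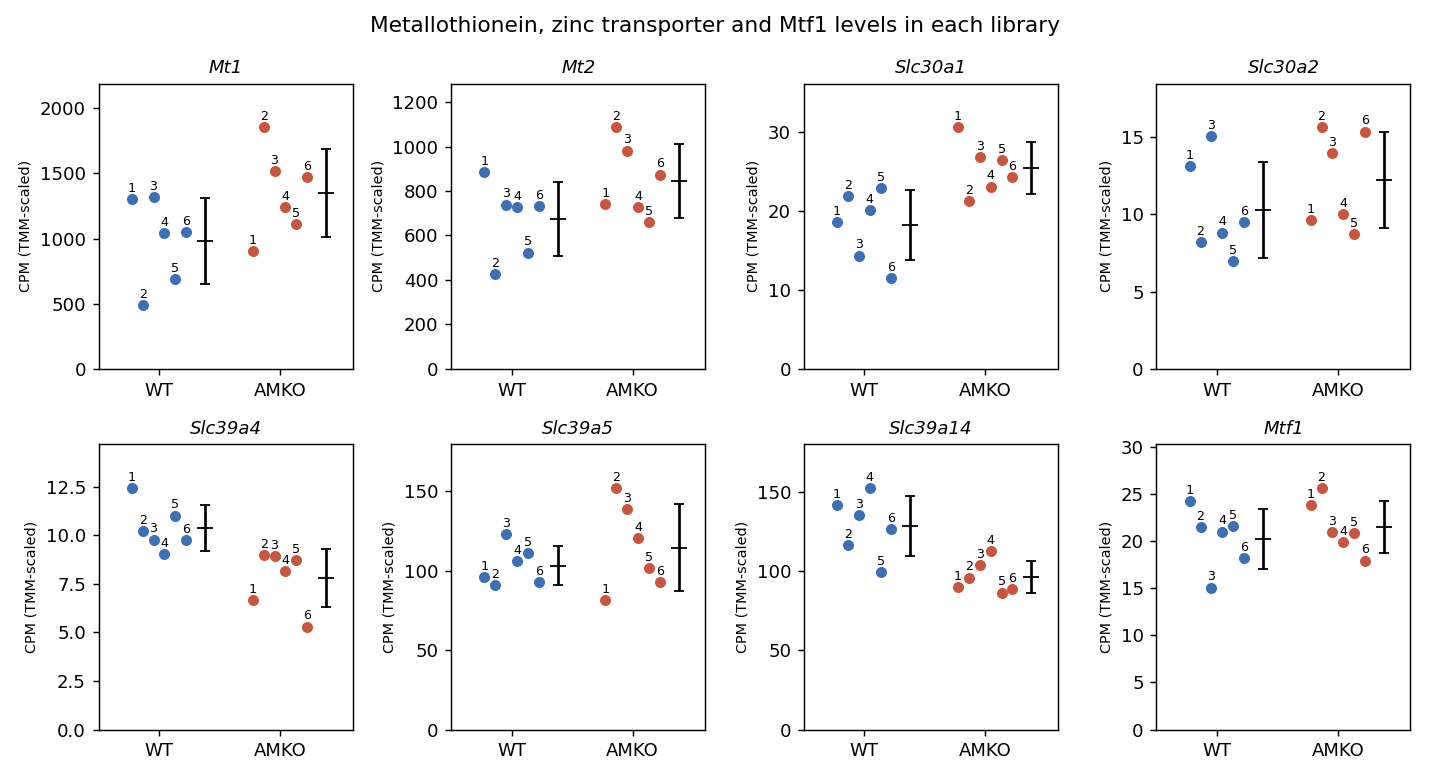
Levels of the 8 genes in each library, on the y axis as TMM-scaled CPM from 0, with points numbered by library and a black bar for the mean ± SD of 6. Mt1 and Mt2 are lowest in WT 2 and WT 5, Slc39a4 lies lower in all 6 AMKO libraries, and Slc39a14 is lower in 4 AMKO libraries than in any WT library.

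The pair of metallothioneins moved together from library to library. Over the 12 libraries, log2 CPM of Mt1 and Mt2 had a Pearson r of 0.951 (permutation p = 2e-05, adjusted p = 6e-05 over 3 relations) and a Spearman rho of 0.811 (permutation p = 0.00209, adjusted p = 0.00627). Within WT r was 0.971 (exact permutation p = 0.00556, adjusted p = 0.0167; rho 0.943, exact permutation p = 0.0167, adjusted p = 0.05). Within AMKO r was 0.86 (exact permutation p = 0.0278, adjusted p = 0.0833; rho 0.829, exact permutation p = 0.0583, adjusted p = 0.175). When the pair of libraries farthest from the median of Mt1 (WT 2 and WT 5) was left out, r was 0.838 (permutation p = 0.00213, adjusted p = 0.00639) and rho was 0.673 (permutation p = 0.0389, adjusted p = 0.117), so that the rank correlation no longer passed. Their transcripts share 79.2% of 192 aligned bases, below the 95% over 300 bases taken here as a near-identical copy. Mt1 counts exceeded Mt2 counts in every library, by 1.43 ± 0.208 in WT and 1.59 ± 0.192 in AMKO (ratio of counts, SD, n = 6 each).

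Among the other members, the vesicular exporter Slc30a2 followed the metallothioneins most closely, a relation noticed after its values were seen and given as a description. Its Pearson r was 0.827 with Mt1 and 0.809 with Mt2 over 12 libraries, 0.785 and 0.702 within WT, and 0.872 and 0.925 within AMKO. These genes share libraries and scaling factors. Slc30a1 had an r of -0.058 with Mt1, -0.584 within WT and -0.797 within AMKO, also given as a description. Its r with Mt2 was 0.006 (permutation p = 0.984, adjusted p = 0.984; rho 0.021, permutation p = 0.955, adjusted p = 0.955), -0.535 within WT (exact permutation p = 0.25) and -0.476 within AMKO (exact permutation p = 0.336). Slc39a14 had an r of -0.066 with Mt2 (permutation p = 0.839, adjusted p = 0.984; rho -0.056, permutation p = 0.868, adjusted p = 0.955), 0.737 within WT (exact permutation p = 0.0917) and 0.187 within AMKO (exact permutation p = 0.725).

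**Figure D2:**
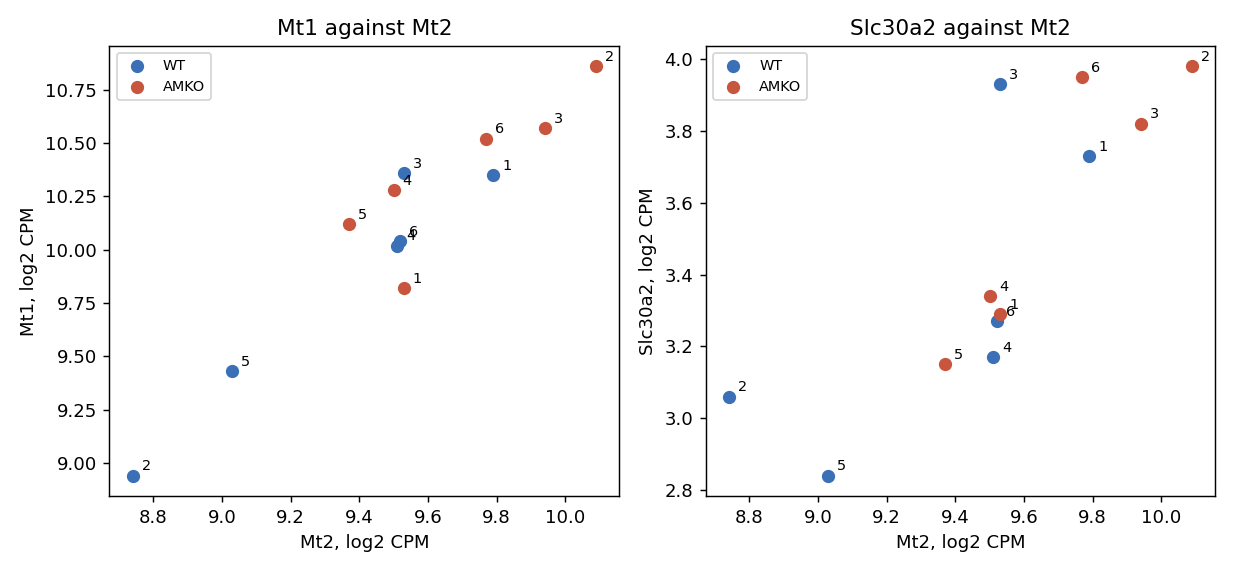
Log2 CPM of Mt1 (left) and Slc30a2 (right) on the y axes against log2 CPM of Mt2 on the x axes, 1 point per library, numbered and coloured by genotype. Both rise with Mt2 in WT and AMKO, with WT 2 and WT 5 at the low end and AMKO 2 at the high end.

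The genes whose log2 CPM most resembled the mean of Mt1 and Mt2 over the 12 libraries were looked for among 11293 genes. Ranked by Pearson r, they were Pgs1, a phosphatidylglycerophosphate synthase (r = 0.944), Pno1, a ribosome assembly factor (0.921), Ppp4r1, a regulatory subunit of protein phosphatase 4 (0.918), the nucleolar protein gene Rsl1d1 (0.915) and the TFIID subunit gene Taf9 (0.911). None of the 5 passed the test between genotypes (adjusted p = 0.0796 to 0.405), though Taf9 was higher in every AMKO library than in every WT library, as were 1.21% of all genes tested. These are the highest of many coefficients over few libraries.

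Mtf1, the zinc sensor, did not pass the test between genotypes. It ran from 15.1 through 21.2 to 24.2 CPM in WT and from 17.9 through 20.9 to 25.6 CPM in AMKO. WT 3 was the lowest and AMKO 2 the highest, with 1 AMKO library above the WT range. The log2 fold change was 0.09 (SE 0.12, 95% confidence interval -0.17 to 0.34, adjusted p = 0.705), and 0.03 without the leukocyte-poor libraries. Its counts are uncertain because it overlaps 1110065P20Rik on the other strand (133 to 201 counts, beside 166 to 393 for Mtf1), and the sources used here do not say whether counting used strand.

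Slc30a1, which exports zinc across the plasma membrane, came close to the threshold without passing it. WT libraries ran from 11.5 CPM in WT 6 through 19.3 to 22.8 CPM in WT 5, and AMKO libraries from 21.3 CPM in AMKO 2 through 25.4 to 30.6 CPM in AMKO 1. In 5 of 6 AMKO libraries it lay above every WT library. The log2 fold change was 0.48 (SE 0.16, 95% confidence interval 0.15 to 0.82, adjusted p = 0.0817), and DESeq2 placed it past the threshold (0.50, SE 0.16, adjusted p = 0.0282). Without WT 3, WT 6, AMKO 3 and AMKO 6 the value was 0.28 (adjusted p = 0.372), since WT 3 and WT 6 were the lowest libraries for this gene. It overlaps the antisense gene 1700034H15Rik, which had only 8 to 20 counts.

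Slc30a2 encodes ZnT2, the transporter that loads zinc into secretory vesicles in rodent acinar and mammary cells. It ran from 6.99 through 9.15 to 15.1 CPM in WT and from 8.71 through 12.0 to 15.6 CPM in AMKO. The groups overlapped over most of their range (log2 fold change 0.24, SE 0.21, 95% confidence interval -0.20 to 0.69, adjusted p = 0.536). WT 1 to 3 averaged 12.1 ± 3.53 CPM and WT 4 to 6 8.43 ± 1.29 CPM (SD, n = 3 each). Against WT 4 to 6 alone the log2 fold change was therefore 0.54 (adjusted p = 0.278), and against WT 1 to 3 alone it was 0.00 (adjusted p = 0.995).

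Slc39a14, which encodes ZIP14, an importer of zinc and non-transferrin-bound iron that is induced in liver by inflammation, fell in AMKO and was the member that passed the test. WT libraries ran from 99.5 CPM in WT 5 through 131 to 153 CPM in WT 4. AMKO libraries ran from 86.4 CPM in AMKO 5 through 93.0 to 113 CPM in AMKO 4. In 4 of 6 AMKO libraries it lay below every WT library, and AMKO 3 and AMKO 4 exceeded WT 5 and no other WT library. Means were 129 ± 18.9 and 96.3 ± 10.2 CPM, a log2 fold change of -0.42 (SE 0.10, 95% confidence interval -0.64 to -0.20, adjusted p = 0.0278). The gene lies at chr14:70303469-70351425 on the minus strand and overlaps no other annotated gene.

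Over all genes, 794 of 13743 were called, 5.78% in either direction, 2.41% higher and 3.37% lower in AMKO, so 1 call among 8 genes says little about the set. The median log2 fold change of the 8 was 0.20, with 6 fitted values above 0 and 2 below, beside a median of 0.00 over all genes tested. The size of the Slc39a14 difference held across the alternatives (-0.48 to -0.36), but the call did not. Leaving out 1 library at a time ended it in 7 of 12 fits (without WT 1, 3, 4 or 6, or AMKO 2, 5 or 6), with adjusted p up to 0.0726. It was also lost against WT 4 to 6 alone (-0.38, adjusted p = 0.208), against WT 1 to 3 alone (-0.45, adjusted p = 0.0642) and without the 4 leukocyte-poor libraries (-0.41, adjusted p = 0.243). These fits hold fewer libraries.

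Markers of several cell types had lower fitted values in AMKO beside Slc39a14, and those of others did not. Over all 13743 genes tested, 6913 were fitted below 0. Of 16 acinar markers, 11 were fitted above 0 and 5 below, with 2 called higher and 1 lower (Ptf1a, Bhlha15 and Cuzd1 together). All 8 tested duct markers were fitted below 0, 3 of them called (Spp1, Epcam and Muc1), and they summed to 2140 to 2799 CPM in WT and 1637 to 2365 CPM in AMKO. Fitted values were also below 0 for 6 of 6 endothelial markers (Kdr called lower; sums of 157 to 229 CPM in WT and 120.2 to 187 CPM in AMKO) and for 6 of 7 fibroblast markers (Pdgfrb called lower; 650 to 1152 and 506 to 1065 CPM). The same held for 5 of 5 tested adipocyte markers, none of them called (91.0 to 498 and 53.6 to 337 CPM). Islet markers (0 of 8 tested called, all fitted above 0) summed to 303 to 866 and 142 to 2064 CPM. Leukocyte markers (0 of 11 tested called, 7 fitted above 0 and 4 below) summed to 235 to 1138 CPM in WT and 330 to 1526 CPM in AMKO. Hepatocyte markers (0 of 9 tested called, 7 fitted above 0 and 2 below) summed to 77.1 to 648 and 111 to 521 CPM. No marker of these lists was at 0 in every library. Their part in the Slc39a14 difference was not tested. Across the 12 libraries, the genotype difference included, Slc39a14 was most like Bhlhe40, a transcriptional repressor (r = 0.964), Ctnnd1, which encodes p120 catenin (0.933), and B4galt1, a galactosyltransferase (0.93). Of these, Bhlhe40 (log2 fold change -0.69, adjusted p = 0.008) and Ctnnd1 (-0.36, adjusted p = 0.0264) were called lower in AMKO.

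Slc39a4, the plasma membrane importer ZIP4 best known from intestinal zinc uptake, was lower in every AMKO library than in every WT library, but only just. WT libraries ran from 9.04 CPM in WT 4 through 9.98 to 12.4 CPM in WT 1, and AMKO libraries from 5.29 CPM in AMKO 6 through 8.43 to 8.96 CPM in AMKO 2. The log2 fold change of -0.41 (SE 0.14, 95% confidence interval -0.71 to -0.11) did not pass (adjusted p = 0.102). With counts divided by library totals alone the groups overlapped, the lowest WT library (WT 4) at 8.59 and the highest AMKO library (AMKO 5) at 8.87 CPM. Groups separated in that direction for 2.3% of all genes tested. The gene had 49 to 202 counts per library, so counting error alone is a visible part of its spread.

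Slc39a5, which encodes ZIP5, a basolateral importer of acinar and intestinal cells, was the most abundant transporter of the set per length and did not separate the genotypes. It ran from 90.6 through 101 to 123 CPM in WT and from 81.3 through 111 to 152 CPM in AMKO. AMKO held both the lowest library (AMKO 1) and the highest (AMKO 2), and its SD was 27.4 CPM against 12.4 CPM in WT. The log2 fold change was 0.15 (SE 0.14, 95% confidence interval -0.15 to 0.45, adjusted p = 0.57), and 0.05 without AMKO 2. Its counts are uncertain, since it overlaps Ankrd52 on the other strand (609 to 1651 counts).

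**Figure D3:**
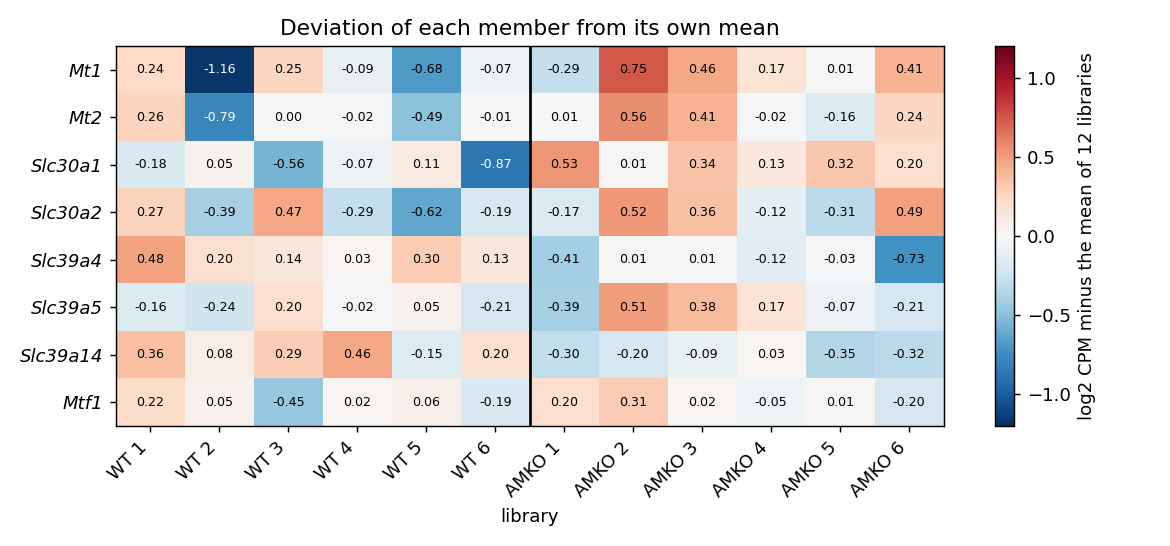
Log2 CPM of each gene minus its own mean over the 12 libraries, 1 row per gene and 1 column per library, red above and blue below that mean. WT 2 and WT 5 are low for Mt1, Mt2 and Slc30a2, AMKO 2 and AMKO 3 are high for these and Slc39a5, and Slc39a14 is above its mean in 5 WT libraries and below it in 5 AMKO libraries.

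Levels of different genes were compared as CPM per kilobase of the principal GENCODE transcript, since longer transcripts give more reads. Over the 12 libraries Mt1 had 2122 ± 677 and Mt2 1485 ± 356 CPM per kilobase, with Mt1 higher in 12 of 12 libraries although the ranges overlapped. Slc39a5 followed at 53.7 ± 10.4, then Slc39a14 at 22.9 ± 4.53, and neither range met that of its neighbours. Slc30a1 (4.16 ± 1.01), Slc30a2 (3.56 ± 0.994), Slc39a4 (3.30 ± 0.68) and Mtf1 (2.74 ± 0.382) lay close together with overlapping ranges. Slc30a1 exceeded Slc30a2 in 7 of 12 libraries and Slc30a2 exceeded Slc39a4 in 6, so the order among the lowest genes was not settled. Which transcripts the authors counted over is unknown here, which affects these levels. For members that overlap another gene it may also affect the comparison between genotypes.

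In the wider zinc transporter families 1 tested gene passed the test, Slc39a10 (log2 fold change -0.99, described below). Over all genes tested 5.78% were called, so 1 call says little about these families. Of 6 tested ZnT genes outside the set none passed the test (median log2 fold change -0.03), and their summed level was 341 ± 17.1 CPM in WT and 341 ± 18.6 CPM in AMKO. Slc30a4, a vesicular exporter, had 134 ± 10.1 and 150.1 ± 17.5 CPM (0.17, SE 0.09, adjusted p = 0.282). Slc30a7, which fills the early secretory pathway, had 115 ± 6.34 and 101 ± 5.31 CPM (-0.18, SE 0.06, adjusted p = 0.0853, and 0.0478 by DESeq2). Of 8 tested ZIP genes outside the set, 1 fell and 7 did not pass (median 0.01). The most abundant, Slc39a1 at the plasma membrane, had 133 ± 9.91 and 139.6 ± 10.3 CPM (0.07, SE 0.07, adjusted p = 0.594), and Slc39a9, of the Golgi, differed by -0.08 on the log2 scale (SE 0.07, adjusted p = 0.534). Against WT 4 to 6 alone these values were 0.0094 for Slc39a1 and -0.0335 for Slc39a9.

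Slc39a10, which encodes ZIP10, a plasma membrane importer whose transcription MTF1 represses in mouse when zinc is ample, was the ZIP gene that fell. It ran from 41.5 CPM in WT 2 through 55.6 to 80.9 CPM in WT 3, and from 11.2 CPM in AMKO 6 through 28.2 to 41.5 CPM in AMKO 2. Every AMKO library lay below every WT library, as was so for 2.3% of all genes tested. The separation was by a hair, with AMKO 2 at 41.49 CPM and WT 2 at 41.5 CPM. Means of 57.5 ± 13.1 and 28.8 ± 11.1 CPM gave a log2 fold change of -0.99 (SE 0.24, 95% confidence interval -1.51 to -0.47, adjusted p = 0.0295). Leaving out 1 library at a time ended the call in 4 of 12 fits (without WT 1, WT 3, WT 4 or AMKO 3; adjusted p up to 0.0735). With only WT 4 to 6 as controls it did not pass (-0.90, adjusted p = 0.163), nor with only WT 1 to 3 (-1.07, adjusted p = 0.138), and without the leukocyte-poor libraries the value was -0.63 (adjusted p = 0.118).

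**Figure D4:**
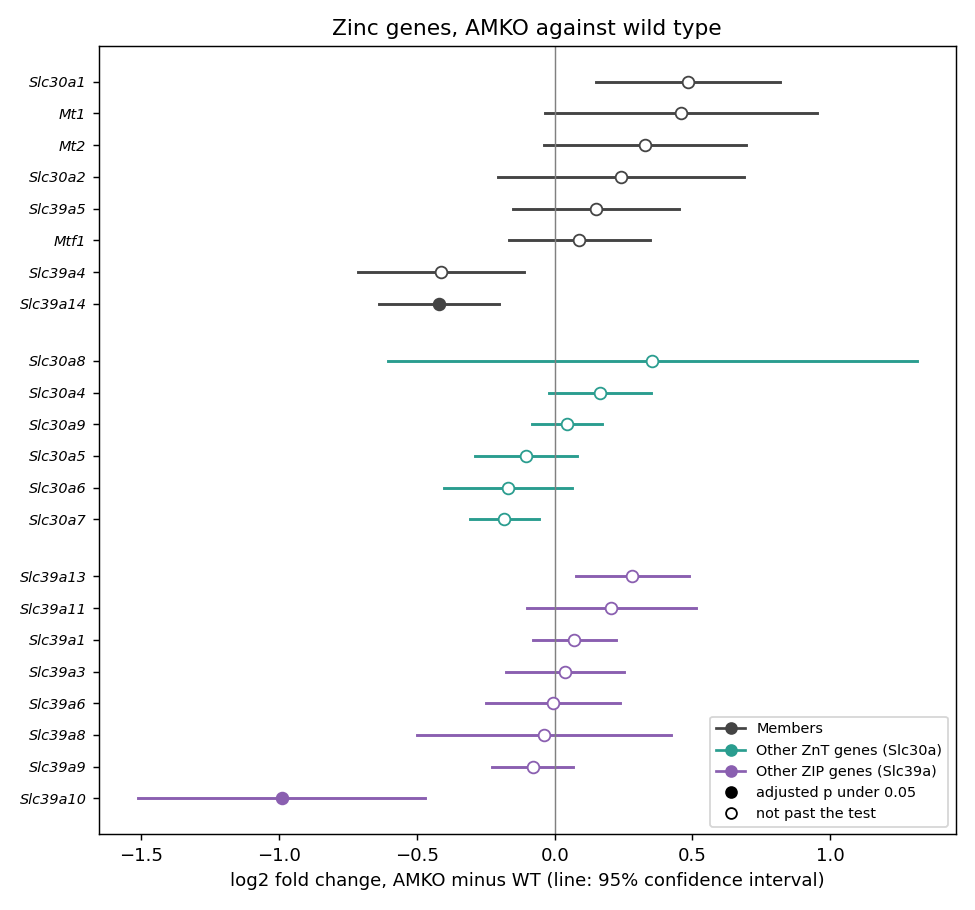
Log2 fold changes of the 8 members and of the 14 other tested zinc transporter genes, AMKO minus WT, on the x axis, 1 gene per row, with lines for 95% confidence intervals. Filled points passed the test at an adjusted p under 0.05, namely Slc39a14 and Slc39a10, both lower in AMKO.

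The remaining genes of these families had too few counts to be tested. Mt3, the brain-type metallothionein, had 0 to 13 counts and Mt4, of squamous epithelium, 0 to 6, so the metallothionein signal of this tissue came almost wholly from Mt1 and Mt2. Slc30a3, Slc30a10 and Slc39a12 had at most 4 counts in any library, and Slc39a2 had 4 to 16 counts in WT and 1 to 4 in AMKO. Slc39a7 had only 2 to 21 counts, and how reads at this locus were assigned is unknown here.

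**Figure D5:**
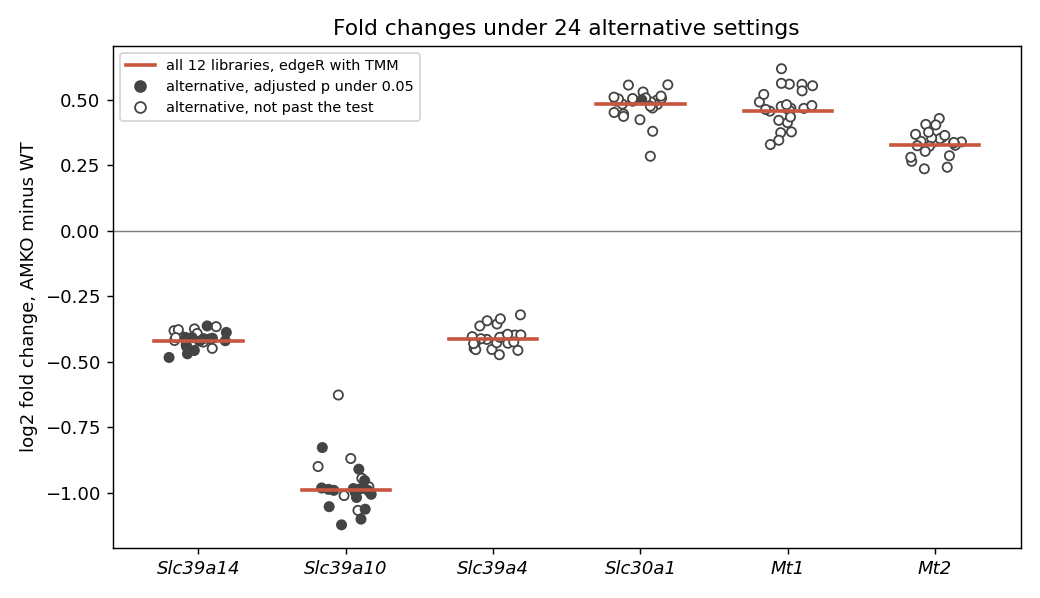
Log2 fold change, AMKO minus WT, of Slc39a14, Slc39a10, Slc39a4, Slc30a1, Mt1 and Mt2 on the y axis under 24 alternative settings (points, filled where the adjusted p was under 0.05), with the value from all 12 libraries as a red line. Every gene keeps its direction. Slc39a14, Slc39a10 and Slc30a1 lie on either side of the test's threshold, Slc30a1 passing it only by DESeq2.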

How the data were processed

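The authors deposited raw counts, whole numbers by gene symbol, in 1 table of 46095 genes and 12 columns, each matched to its sample by title. HISAT2 2.0.4 and the mm10 build are named in the submitters' processing notes. Which counter and annotation were used, and how strand and multiply matching reads were treated, was not given in the sources used here. Per the labels' protocols, RNA was taken up in Trizol.

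AMKO was compared with WT by edgeR 4.0.16 (R 4.3.3) with the quasi-likelihood F test on the counts, TMM scaling, filterByExpr and genotype as the only term. Benjamini-Hochberg adjustment ran over the 13743 genes tested, the threshold was an adjusted p under 0.05, and the code was tested on simulated data. Log2 CPM used a prior count of 2. All p-values are two-sided, and permutation p-values over 12 libraries come from 100000 resamples. The labels do not tie samples to single mice, so the p-values reflect variation among these samples, which may be technical. Alternatives were scaling by RLE, by total counts or by the upper quartile, TMM without the 50 most counted genes, and other count filters. Further alternatives were DESeq2 1.42.0, limma 3.58.1 (voom with library quality weights, called limma voom here), the replicate number as a block, and subsets of libraries. Positions, lengths and overlaps come from GENCODE on GRCm38, the assembly mm10 names, copies from BLAST 2.17.0, and promoter letters from RefSeq (GRCm38.p6).

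The members, the gene lists and the library subsets were chosen with earlier results of these data known. Genes named are the 8 members, the called genes and the 2 most abundant of each zinc, glucocorticoid, STAT3 and NRF2 list, the genes most like the metallothioneins and like any called member, and marker or untested genes where a count names them.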

Additional observations from a re-analysis of the deposited data

Results flagged for a closer look

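Among the 38 groups of 6 libraries searched for a library far from the rest (8 members and 11 other named genes in 2 genotypes), 1 stood out, and about 1 group in 20 would do so by chance. Srxn1, an antioxidant enzyme gene driven by NRF2, had 715 CPM in AMKO 2 against 216 to 353 CPM in the other AMKO libraries. AMKO 2 was also the library with the highest Mt1 and Mt2. None of the 8 members had such a library in either genotype.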

How the results depend on the processing

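Each of the 8 members kept the sign of its fold change in all 24 alternatives, and so did the zinc transporters named beside them. The number of genes called was 456 with total-count scaling, 1295 by DESeq2, 1664 by limma voom, 167 against WT 4 to 6 only, 231 against WT 1 to 3 only, 98 without the leukocyte-poor libraries, and 411 to 1140 without 1 library. The number of members called was 2 by DESeq2 (Slc39a14 and Slc30a1), 0 against WT 4 to 6 only, 0 against WT 1 to 3 only, 0 without the leukocyte-poor libraries and 0 to 1 without 1 library. With the replicate number as a block, 910 genes and 1 member were called (Slc39a14, adjusted p = 0.011), and no member or named zinc transporter changed its call. Deviations of equally numbered libraries correlated between -0.16 and 0.346, below 0.1 for numbers 2 and 4. For numbers 1 and 6 that r was above the highest with a differently numbered library (0.266 against 0.265, and 0.316 against 0.25). Whether equal numbers mark a pairing or a batch cannot be told from these values, and the labels do not say. Under the same block the r of Mt1 with Mt2 was 0.968 (exact sign-change p = 0.0625, adjusted p = 0.188). That test cannot go below 0.0312, or 0.0938 when multiplied by the 3 relations, so it says nothing about stability. Within AMKO r was 0.86. The r of Mt2 with Slc30a1 changed sign within WT (-0.535) and within AMKO (-0.476), and ran from -0.1 to 0.049 without 1 library. The r of Mt2 with Slc39a14 changed sign within WT (0.737), within AMKO (0.187) and without WT 2 and AMKO 2 (0.144), and ran from -0.175 to 0.052 without 1 library. The cause of these changes was not tested. Stat3 turned from -0.02 to 0.00 against WT 4 to 6 only (0.0041) and to 0.0672 without the leukocyte-poor libraries, and ran from -0.0566 to 0.0255 without 1 library. Osmr turned to 0.0068 without the leukocyte-poor libraries. Depth limits Slc39a4 and Slc30a2 most, with as few as 49 and 75 counts in a library.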

Other observations

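Genes induced by signals that are known to raise metallothioneins were also measured. Of 7 tested glucocorticoid-induced genes none passed the test, and 6 had fitted values above 0 (median log2 fold change 0.26). Dusp1, a phosphatase that limits MAP kinases, had 54.1 ± 18.4 CPM in WT and 85.4 ± 10.9 CPM in AMKO (0.66, SE 0.19, adjusted p = 0.0524). It passed in 10 of the 24 alternatives, among them DESeq2, the replicate block (adjusted p = 0.0113) and WT 1 to 3 as the only controls (0.63, adjusted p = 0.0266). It did not pass with WT 4 to 6 as the only controls (0.70, adjusted p = 0.221) or without the leukocyte-poor libraries (0.48, adjusted p = 0.268). Klf9, a glucocorticoid-induced transcription factor, differed by 0.26 on the log2 scale (SE 0.18, adjusted p = 0.429), with 0.044 without the leukocyte-poor libraries, 0.132 without WT 6, 0.109 with WT 1 to 3 as the only controls and 0.436 with WT 4 to 6. Of 8 genes induced by IL-6 and STAT3 none passed (median -0.01), with Osmr, the oncostatin M receptor, at -0.18 (SE 0.14, adjusted p = 0.498) and Stat3 itself at -0.02 (SE 0.07, adjusted p = 0.904).

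Of 7 genes induced by NRF2 or heme none passed, and 6 had fitted values below 0 (median -0.35). Gclc, the catalytic subunit of glutathione synthesis and also a known MTF1 target in mouse, had 1100.5 ± 484 CPM in WT and 653 ± 262 CPM in AMKO (-0.75, SE 0.33, adjusted p = 0.194). Srxn1 had 559 ± 341 and 362 ± 182 CPM (-0.63, SE 0.38, adjusted p = 0.359). The Srxn1 value was -0.29 without WT 3, -0.32 against WT 4 to 6 alone and -0.0039 without the leukocyte-poor libraries. Hmox1, the heme oxygenase gene and the 1 member of the list fitted above 0, had 75.5 ± 28.2 CPM in WT and 100.9 ± 26.4 CPM in AMKO (0.42, SE 0.22, adjusted p = 0.276) and is named here after its values were seen.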
